A study of Mus musculus with 8 samples.

Results

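The genes described here are named for the proteins of the cytoplasmic ribosome. They were chosen by name from a table of gene-level read counts: symbols made of Rpl or Rps, a number and at most a letter a, x, y or l with further digits, plus Rplp0, Rplp1, Rplp2 and Rpsa, leaving out names with "-ps", the mark of a pseudogene. The rule took 85 of the 24454 genes in the table, 33 named for the small ribosomal subunit and 52 for the large one, and it used no measured value. Of these 85, the GENCODE annotation marks 2 as pseudogenes, Rps4l and Rpl32l, whose names lack that mark. The counts came from mouse yolk sac at embryonic day 11.5, where cells had been sorted into 8 small pools. All embryos were C57BL/6 and carried green fluorescent protein (GFP) on 1 allele of the miR144/451 locus, an erythroid microRNA locus. Cells positive for the endothelial adhesion protein VE-Cadherin and negative for GFP gave 3 endothelial pools of 25 cells (replicates 1 to 3). GFP positive, VE-Cadherin negative cells gave 3 erythroid pools of 25 cells (replicates 4 to 6), and cells positive for both gave 2 double positive pools of 24 cells (replicates 7 and 8). The labels do not say whether pools came from separate embryos, so each p measures the spread between pools, which may be technical.

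Each ribosome is built from a small subunit, which reads the messenger RNA, and a large subunit, which joins amino acids, and each of its proteins is normally present once per particle. Most of the genes begin their transcripts with a run of pyrimidines, the terminal oligopyrimidine motif through which mTOR and Larp1 control their translation together. Red cell precursors make large amounts of globin in a short time, and inherited loss of 1 copy of several of these genes causes Diamond-Blackfan anaemia, in which red cell production fails.

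RefSeq windows around annotated transcription starts (GRCm38.p6) were found for 64 of the 85 genes. The 6 stretches below are examples from genes whose share of the family differed between the populations. For each of them RefSeq and GENCODE place the start within 4 bases of each other. They are not all the genes that meet these terms, since Rpl13 does too and is not shown. Each runs from 60 bases before the start to 20 after it, 5′ to 3′ on the gene's own strand, and capitals mark pyrimidine runs of at least 8 bases.
Rplp0 (chr5:115559407-115559486, plus strand): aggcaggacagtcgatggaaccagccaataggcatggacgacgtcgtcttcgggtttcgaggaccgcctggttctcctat
Rps7 (chr12:28635934-28636013, minus strand): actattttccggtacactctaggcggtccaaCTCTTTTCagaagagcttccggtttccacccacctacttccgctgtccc
Rpl10 (chrX:74270756-74270835, plus strand): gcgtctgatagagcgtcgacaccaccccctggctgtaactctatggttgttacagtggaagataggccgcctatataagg
Rpl23 (chr11:97782420-97782499, minus strand): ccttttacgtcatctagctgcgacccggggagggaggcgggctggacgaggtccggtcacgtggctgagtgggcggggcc
Rps21 (chr2:180257319-180257398, plus strand): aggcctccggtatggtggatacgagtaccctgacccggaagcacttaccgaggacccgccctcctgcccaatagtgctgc
Rps27l (chr9:66946026-66946105, plus strand): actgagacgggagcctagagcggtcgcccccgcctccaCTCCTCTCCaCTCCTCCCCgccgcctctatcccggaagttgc

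A pyrimidine run of at least 8 bases on the gene's strand, within 50 bases of the start on either side, was present in 51 of the 64 windows (79.7%) and in 35.7% of the windows of all 27025 genes. Such a run can lie before the start or away from it, so this share does not measure the terminal oligopyrimidine motif. The runs marked above in Rps7 and Rps27l lie before the annotated start. The letters CCGGAAG, the core of ETS factor sites, were found on either strand within the window of 250 bases before to 50 after the start in 25 members (39.1%, against 9.12% of all genes). Rps7, Rps21 and Rps27l hold them. GGGCGG, the core of an Sp1 site, was in 38 members (59.4%, against 35.9%). AAGATGGCG, the core of a YY1 site, was in 4 members (6.25%, against 1.49%). The E-box letters CACGTG were in 5 members (7.81%, against 7.24%), and the GATA letters AGATAA were in 4 members (6.25%, against 11.4%). TATAAA was in 7 members (10.9%, against 14.2%). None of these motifs contains another, and a match describes letters, not a bound site.

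Endothelial libraries held 3723128 to 4439165 counts, erythroid libraries 5291843 to 7618444, and the 2 double positive libraries 4637930 and 4818074. Globin made up 54.5 to 56.5% of erythroid counts, 8.86 and 14.0% of double positive counts, and at most 0.00404% of endothelial counts. Trimmed mean of M values (TMM) factors multiplied erythroid library sizes by 0.563 to 0.580, double positive ones by 1.13 and 1.02 and endothelial ones by 1.65 to 1.71. Normalised read counts below are in CPM, a gene's counts divided by its library's scaled size and brought to a common total. The 8 endothelial markers (Cdh5, Pecam1, Kdr, Tek, Emcn, Lyve1, Eng and Tie1) summed to 2570 to 3750 CPM in endothelial libraries and to 300 and 444 CPM in double positive libraries, and all 8 were at 0 in every erythroid library. The 8 erythroid markers summed to 949739 to 1011960 CPM in erythroid libraries, to 78858 and 137647 CPM in double positive libraries and to 15.3 to 24.7 CPM in endothelial libraries. Markers of 2 further cell types were present. The 8 visceral endoderm markers, among them Afp, Ttr and Apoa1, summed to 81096 and 83301 CPM in double positive libraries and to at most 36.3 CPM elsewhere. The 8 macrophage markers summed to 1037 to 2357 CPM in endothelial libraries and to 103 and 138 CPM in double positive libraries, and were all at 0 in erythroid libraries. In double positive replicate 7, 5 of these 8 were at 0 (Adgre1, C1qa, C1qb, Fcgr1 and Ptprc). The part of these 2 further cell types in the results below was not tested.

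Ribosomal protein genes took 3.04 to 3.94% of all counts in every library, and a larger part of the erythroid counts once globin was set aside. Of all counts they held 3.87, 3.74 and 3.74% in the endothelial libraries, 3.30, 3.18 and 3.04% in the erythroid libraries, and 3.28 and 3.94% in the double positive libraries. The erythroid libraries lay below all endothelial libraries, and the double positive libraries spanned both sides. The 95% Wilson interval of a single library was narrow, as in double positive replicate 7 (3.26 to 3.29%), and covers counting error only. Of the counts outside globin, the erythroid share was 7.59, 7.26 and 6.69%, the double positive share was 3.60 and 4.58%, and the endothelial share remained between 3.74 and 3.87%. All 3 erythroid libraries were then above every other library. With the ribosomal RNA precursor Rn45s also removed, the means were 4.73 ± 0.0267% (SD, n = 3) in endothelial, 9.90 ± 0.571% (n = 3) in erythroid and 4.76 ± 0.889% (n = 2) in double positive libraries. A share gives the make-up of a pool's RNA, and fewer cells and less RNA per cell cannot be told apart in it.

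**Figure D1:**
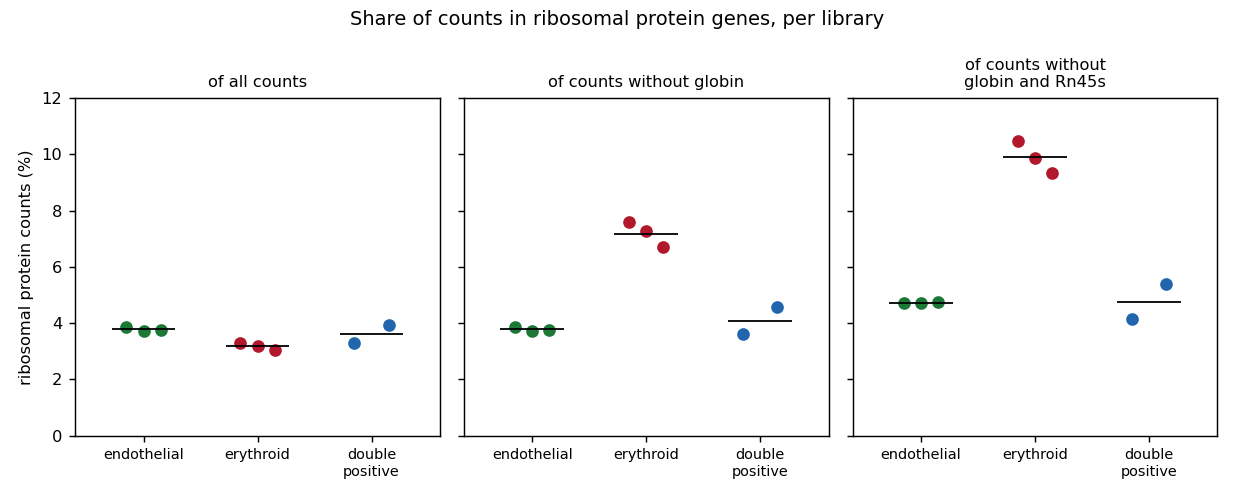
Share of counts in the 85 ribosomal protein genes (%, vertical axis) in each library of the 3 populations (points, with the mean as a bar), over all counts, over counts without globin, and over counts without globin and Rn45s. The erythroid libraries are lowest on average over all counts (3.17%) and highest without globin (7.18%).

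Between the erythroid and endothelial populations the ribosomal protein genes moved as a block on the TMM scale. Of the 80 members with enough counts to test, 74 were higher in erythroid libraries and 1 was lower at an adjusted p under 0.05, with a median log2 difference of 1.13, whereas with library size alone 4 were higher and 45 lower with a median of -0.41. Of all 12136 genes tested, 14.4% were higher and 26.6% lower on the TMM scale, with a median of -0.36. With library size alone 3.46% of all genes were higher and 59.9% lower, with a median of -1.90. The direction of the block thus differed between TMM and library size alone. The other scalings of the whole library gave the TMM direction. DESeq2 and RLE factors each gave 72 higher and 1 lower (medians 0.95 for members, -0.54 for all genes). With globin removed 66 were higher and 2 lower (0.76, against -0.70). With Rn45s removed too, 71 were higher and 1 lower (0.90, against -0.55). The members' median lay 1.49 above that of all genes, a distance that a change of scaling can hardly alter, since it shifts every gene nearly alike. Tested members outside both counts included Rpl7l1 (log2 difference -0.29, adjusted p = 0.316) and the sparsely counted Rpl30, Rpl34 and Rps27. The 1 lower member was Rps4l, a relative of Rps4x.

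Double positive libraries stood between the other populations on the TMM scale, with a wide gap between the 2 pools. The summed level of all members was 22663 to 22746 CPM in endothelial libraries, 29060 and 38675 CPM in double positive libraries and 52521 to 58601 CPM in erythroid libraries, and the 3 ranges did not overlap. Against endothelial libraries 49 of 80 members were higher and 0 lower (all genes, 14.6% higher and 6.92% lower), with a median of 0.59 on the TMM scale, whereas with library size alone 2 were higher and 3 lower (all genes, 9.21% higher and 15.7% lower) with a median of -0.059. The count rested on few libraries: 7 members were higher without double positive replicate 8, and 23, 29 and 25 without endothelial replicate 1, 2 or 3. With globin removed before library sizes, 5 members were higher and 1 lower. Against erythroid libraries 2 members were higher and 47 lower (all genes, 31.5% higher and 10.6% lower), with a median of -0.58, whereas with library size alone 29 were higher and 4 lower (all genes, 47.5% higher and 3.9% lower) with a median of 0.32. Without double positive replicate 7 the number of lower members was 22. The 3 comparisons share libraries, so their values are not independent of each other.

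**Figure D2:**
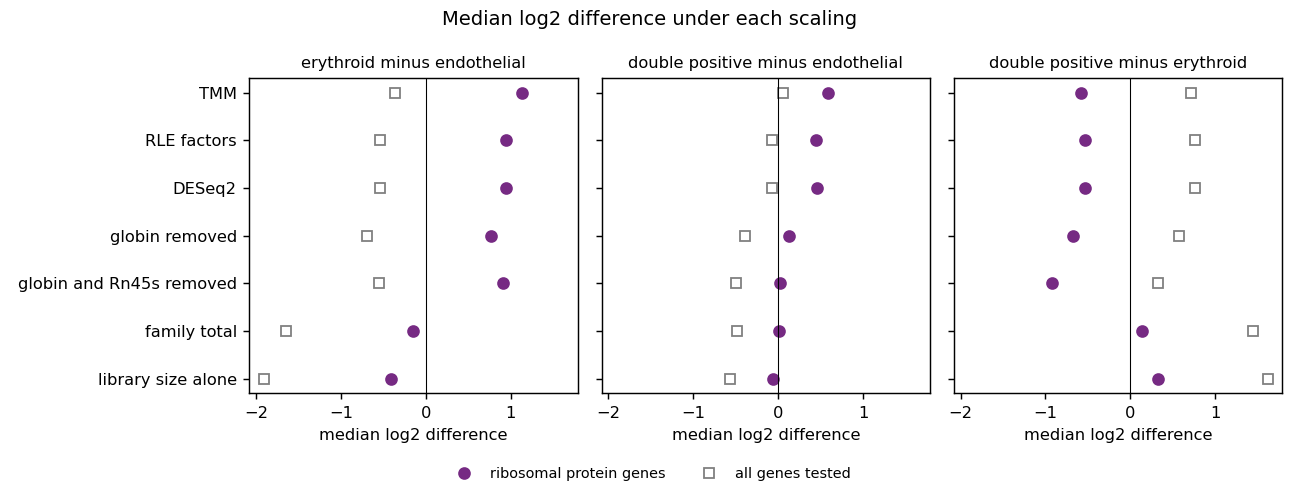
Median log2 difference (horizontal axis) of the 80 tested ribosomal protein genes (filled circles) and of all genes tested (open squares) in the 3 comparisons, with 1 line for each way of scaling the libraries. The erythroid minus endothelial median of the members runs from 1.13 with TMM to -0.41 with library size alone, and in double positive minus erythroid it turns from -0.58 to 0.32. Each scaling shifts members and all genes together, so the gap between circle and square is nearly fixed by construction.

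Levels per transcript length differed widely among the members. The length is that of 1 annotated transcript chosen for each gene, which is long beside the coding part in some members. Rps20 was divided by 3706 bases, 357 of them coding, and Rpl7l1 by 2606 bases, 738 of them coding. How much of the spread rests on this choice was not tested. Per kilobase of the annotated transcript, Rpl41, the shortest ribosomal protein, was highest over the 3 populations at 920 ± 46.6 CPM per kilobase in endothelial, 3078 ± 282 in erythroid and 1602 ± 366 in double positive libraries (SD, n = 3, 3 and 2). Rps2, a small subunit protein near the entry of the messenger RNA, stood at 775 ± 21.7, 3165 ± 171 and 998 ± 214 CPM per kilobase in the same order. Rplp0, the base of the stalk that recruits elongation factors, stood at 661 ± 17.2, 3108 ± 112 and 925 ± 225 CPM per kilobase. The erythroid means of Rps2, Rplp0 and Rpl41 differed by less than their SDs. Rps29, Rps14, Rplp1 and Rps19 were also among the highest, with means over the 3 populations of 1462, 1340, 1311 and 1245 CPM per kilobase.

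The median member had 538 CPM per kilobase and the lowest of the 77 members above 10 CPM was Rpl7l1 with 34.5. Across these 77 members, log2 levels per kilobase had a Pearson correlation of 0.91 between the endothelial and erythroid, 0.95 between the endothelial and double positive, and 0.85 between the erythroid and double positive means. The points share gene length, annotation and counting, and the values are a description. Of the 85 members, 82 share at least 1 stretch of 50 bases with an annotated pseudogene, and the median member has 44.6% of its stretches to itself. How reads with several matching places were counted is not given in the sources used here, so single levels are uncertain. The correlation of level per kilobase with the unshared percentage was -0.13 over the 77 members. Of rows named as copies of members, Rpl14-ps1 had 65 to 197 counts per library and Rpl37rt had 81 to 144. Rpl7a alone shares stretches with 121 annotated pseudogenes, so these 2 rows do not measure the reads that members share with the others.

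**Figure D3:**
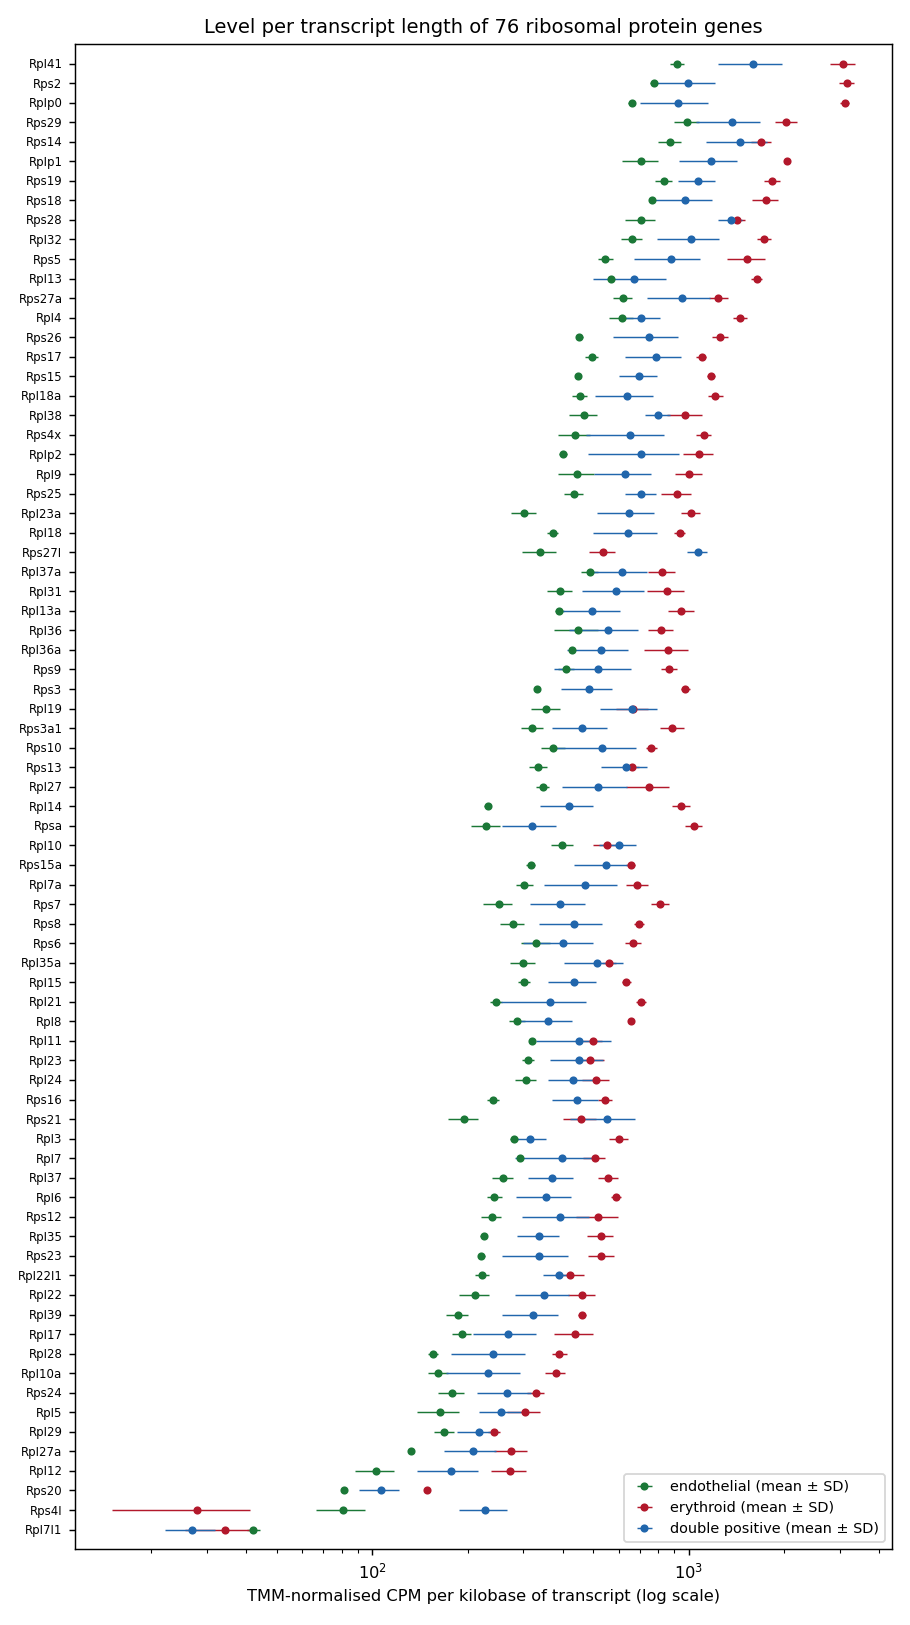
Mean TMM-normalised CPM per kilobase of transcript (horizontal log axis, bars ± SD) of 76 members above 10 CPM per kilobase, by population. On this scale most members are highest in erythroid libraries, a direction that turns with library size alone (45 lower, 4 higher than endothelial); Rps4l, Rps27l, Rps21 and Rpl10 are among those with their highest mean in double positive libraries.

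To see which members changed relative to the others, the same test was run with the summed counts of all members as library size, a scale on which globin and ribosomal RNA play no part. Between erythroid and endothelial libraries 8 members rose within the family and 18 fell, and the other 54 of 80 did not pass. The excess of falls depended on the denominator, since with the median of ratios over the members 12 were higher and 11 lower. Without erythroid replicate 4 or 5, 11 members were lower. On this scale 4.14% of all genes were higher and 52.3% lower. The small subunit's part of the family was 45.8 to 46.5% in endothelial libraries, 45.1 to 45.7% in erythroid libraries, and in double positive libraries 47.9 and 47.5%. Within populations the members had a median SD of 0.169 on the log2 CPM scale with TMM factors, against 0.550 for all tested genes. Genes of like level were not compared, so a low spread is not shown to be particular to the family. Family shares did not overlap in 50 of 80 members between erythroid and endothelial, 40 between double positive and endothelial, and 61 between double positive and erythroid libraries. The same share over all genes was not computed, so these counts cannot be read as a trait of the family.

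**Figure D4:**
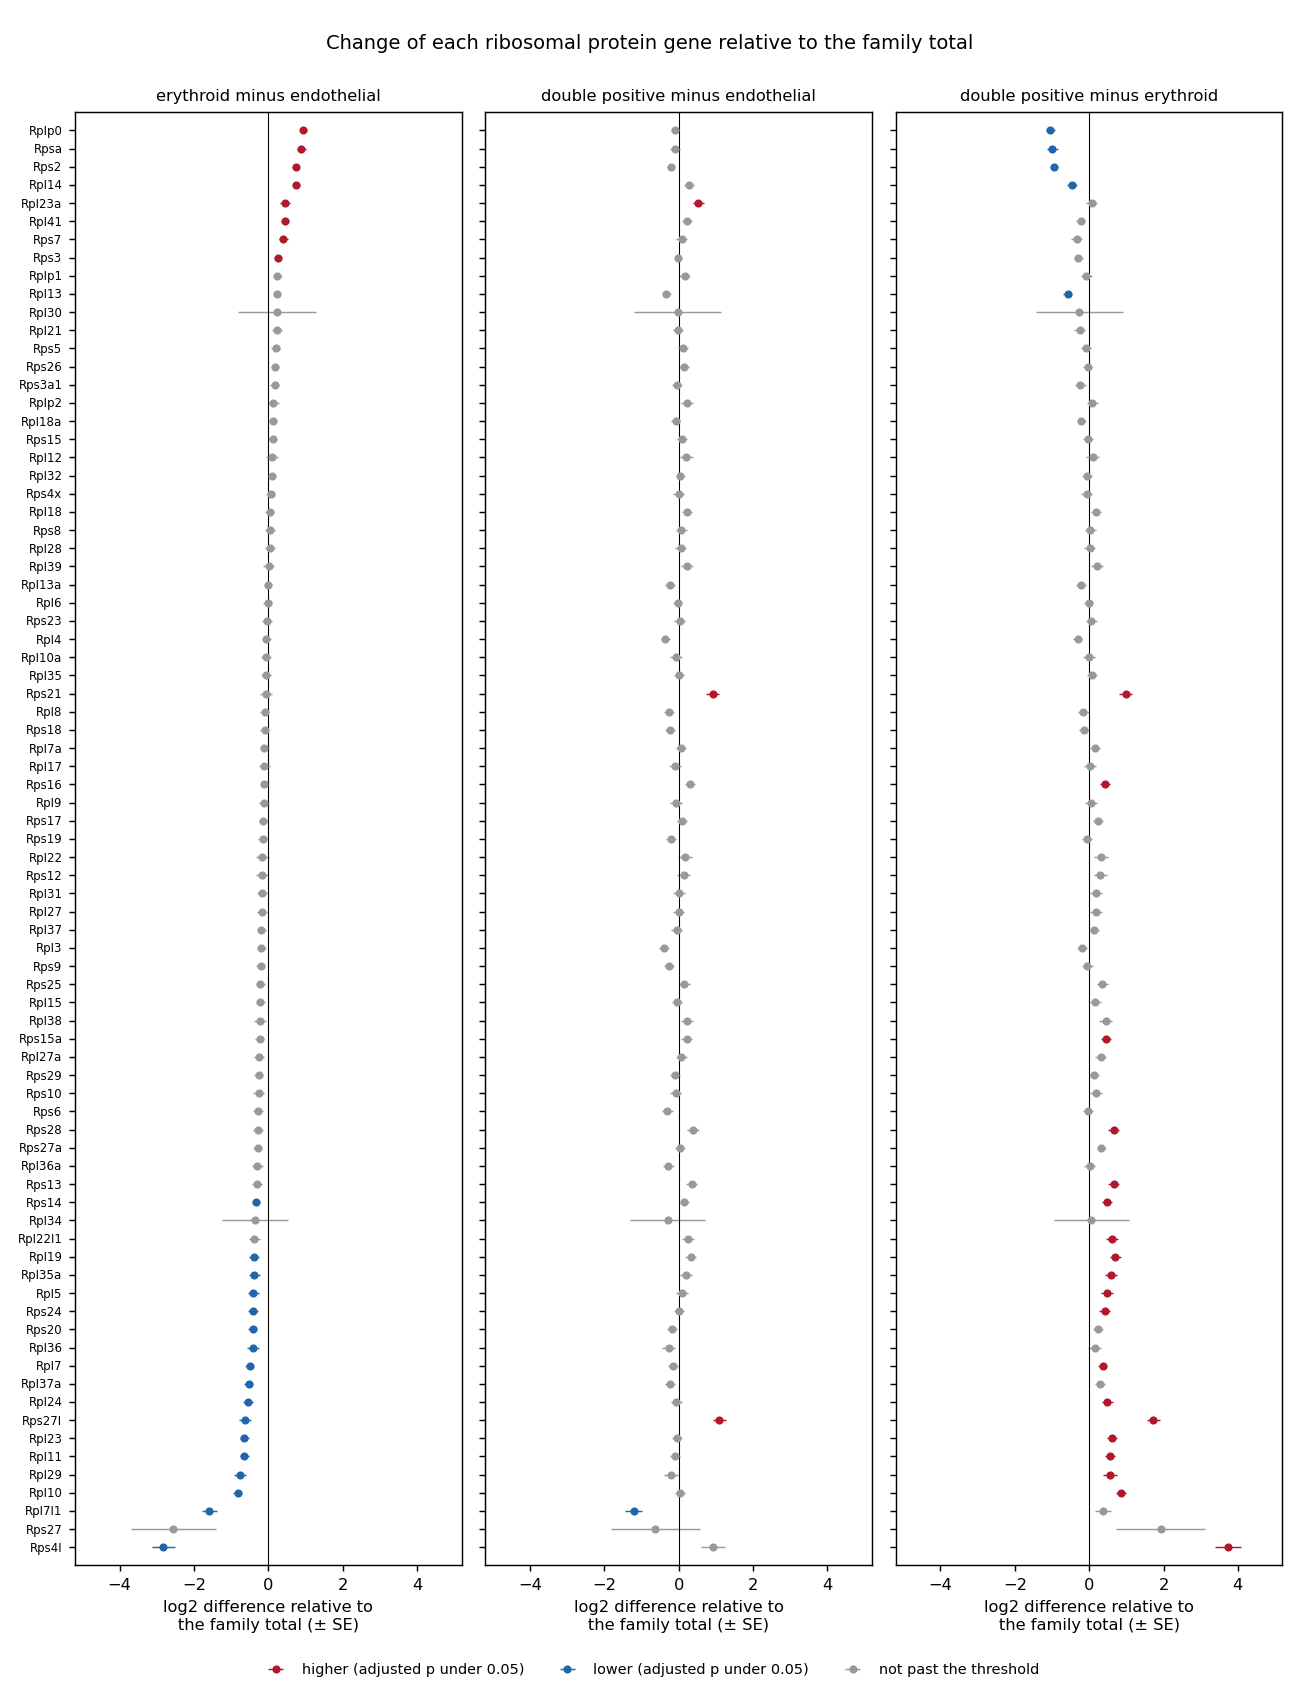
Log2 difference of each of 79 tested members relative to the family total (horizontal axis, bars ± SE) in the 3 comparisons, ordered by erythroid minus endothelial. Rplp0, Rpsa, Rps2 and Rpl14 stand at the top on the left and lie below 0 in double positive minus erythroid; Rps4l and Rps27l do the reverse.

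The members that rose in erythroid libraries were led by Rplp0, Rpsa, Rps2 and Rpl14. Rplp0 held 4.04, 3.85 and 3.96% of all member counts in endothelial libraries, 7.30, 7.79 and 7.71% in erythroid libraries and 3.58 and 3.81% in double positive libraries. Its 3 erythroid libraries stood well apart from the other 5. The erythroid rise against endothelial libraries was 0.94 ± 0.10 on the log2 scale within the family (SE, edgeR quasi-likelihood test, adjusted p = 5.33e-05) and 2.23 ± 0.14, or 4.71-fold, on the TMM scale (adjusted p = 6.27e-06). Its partners in the stalk, Rplp1 and Rplp2, which bind to it in pairs and carry the acidic tails, did not pass within the family. Rplp1 held 1.40, 1.79 and 1.47% in endothelial, 1.78, 1.84 and 1.90% in erythroid libraries and 1.73 and 1.75% in double positive libraries (0.24 ± 0.13, adjusted p = 0.136). Rplp2 held 0.728, 0.769 and 0.731%, then 0.866, 0.740 and 0.839%, then 0.790 and 0.943% (0.13 ± 0.14, adjusted p = 0.441). Both overlapped between the endothelial and erythroid libraries. The difference between Rplp0 and its partners was not itself tested.

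Rpsa, a small subunit protein also known as the laminin receptor precursor, held 1.43, 1.76 and 1.65% of member counts in endothelial libraries, 3.02, 2.98 and 2.97% in erythroid libraries and 1.51 and 1.50% in double positive libraries. The erythroid rise within the family was 0.89 ± 0.12 (adjusted p = 2.63e-04). The erythroid libraries were again apart from all others, and the double positive libraries lay inside the endothelial range. Rps2 held 3.41, 3.51 and 3.30% in endothelial, 5.49, 5.91 and 5.65% in erythroid libraries and 2.91 and 2.96% in double positive libraries, a rise of 0.74 ± 0.10 (adjusted p = 2.50e-04). The double positive libraries were the lowest of the 8. Together Rplp0, Rps2 and Rpsa made up 8.87 to 9.12% of endothelial member counts, 15.8 to 16.7% of erythroid ones, and 8.0 and 8.3% of double positive ones.

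Rpl14, a large subunit protein, held 0.997, 1.05 and 1.04% in endothelial, 1.72, 1.75 and 1.69% in erythroid libraries and 1.25 and 1.24% in double positive libraries. The erythroid rise was 0.74 ± 0.11 (adjusted p = 5.75e-04), and the 3 populations did not overlap. Rpl23a, at the exit of the peptide tunnel, Rpl41, Rps7 and Rps3 also rose, by 0.46, 0.45, 0.41 and 0.26. Rps3 was close to the threshold (adjusted p = 0.0486). All 8 rises were also called when the denominator was the median of ratios over the members or left out the 5 highest members. Rps7 and Rps3 were not called in every fit with 1 library left out.

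The 18 members that fell within the family in erythroid libraries came from both subunits. Rpl10, the X-linked large subunit protein that joins late in assembly beside the catalytic centre, held 1.36, 1.32 and 1.52% of member counts in endothelial, 0.834, 0.764 and 0.775% in erythroid libraries and 1.50 and 1.36% in double positive libraries. Its difference was -0.82 ± 0.13 (adjusted p = 5.90e-04), with no overlap between erythroid and other libraries. On the TMM scale the same gene was higher in erythroid libraries (0.47 ± 0.14, adjusted p = 0.0217). That scale does not divide by the family total. In all, 11 members fell under all 3 denominators, among them Rpl10, Rps4l, Rpl7l1, Rpl29, Rpl11, Rpl23, Rps27l and Rpl24. Members such as Rpl19, Rpl35a, Rpl5 and Rps24 fell against the family total and did not pass under both other denominators.

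Rpl5 and Rpl11 form a particle with 5S ribosomal RNA and, outside the ribosome, bind Mdm2, the ubiquitin ligase of p53. Rpl11 held 1.19, 1.19 and 1.14% of member counts in endothelial libraries, 0.763, 0.732 and 0.741% in erythroid libraries and 1.04 and 1.15% in double positive libraries (erythroid minus endothelial -0.65 ± 0.12, adjusted p = 1.71e-03). Rpl5 held 1.72, 1.36 and 1.33%, then 1.20, 1.08 and 1.06%, then 1.60 and 1.49% (-0.40 ± 0.14, adjusted p = 0.0376), a call that was lost with the other denominators. For both genes every erythroid library was below every other library. Of 19 members with known mutations in Diamond-Blackfan anaemia, 18 were tested. On the TMM scale 17 were higher in erythroid than endothelial libraries (14.4% of all genes, and 74 of the 80 members), with a median of 1.06, and within the family 1 was higher (Rps7) and 4 lower (Rpl5, Rpl11, Rpl35a and Rps24), with a median of -0.23 (4.14% of all genes higher and 52.3% lower, and 8 and 18 of the 80 members). These shares are near those of all members. Rps19, the gene most often mutated in that disease, held 2.32, 2.18 and 2.47% in endothelial, 1.99, 2.21 and 2.07% in erythroid libraries and 2.10 and 1.91% in double positive libraries, and did not pass within the family (-0.15 ± 0.12, adjusted p = 0.293). Its erythroid libraries overlapped both other populations, while both double positive libraries lay below every endothelial one.

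**Figure D5:**
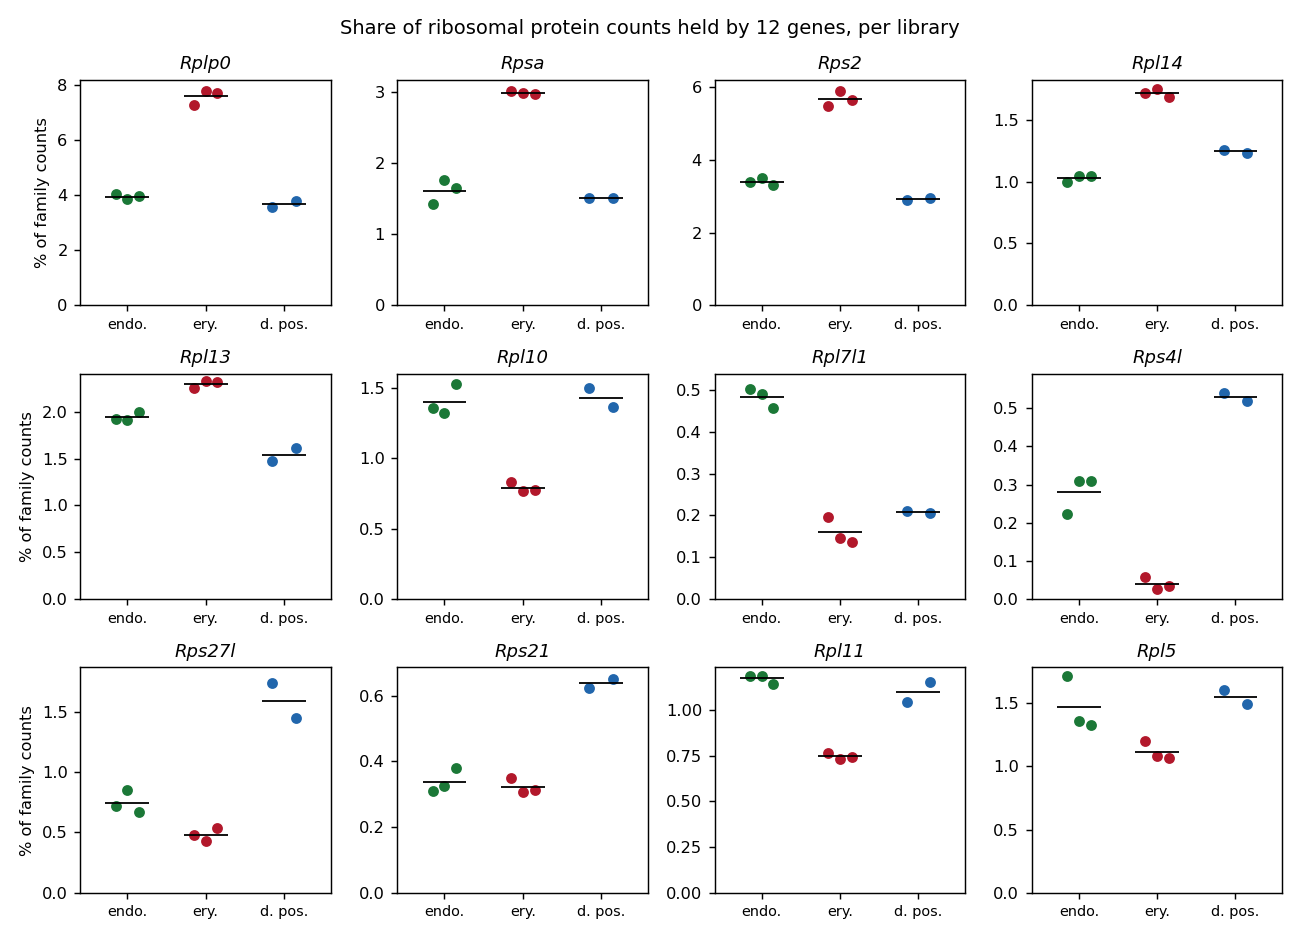
Share of all ribosomal protein counts (%, vertical axis from 0, a scale for each gene) held by 12 members in each endothelial, erythroid and double positive library (points, with the mean as a bar). Rplp0, Rpsa, Rps2 and Rpl14 are highest in the 3 erythroid libraries, Rpl10, Rpl11 and Rpl5 lowest there, Rpl13 lowest in the 2 double positive libraries, and Rps27l, Rps21 and Rps4l highest in those 2.

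Few members passed between the double positive and endothelial libraries. Within the family 3 members were higher than in endothelial libraries and 1 was lower, where 9.24% of all genes were higher and 12.9% lower. Rps27l, a relative of Rps27 known as a p53 target, held 0.721, 0.850 and 0.669% of member counts in endothelial, 0.480, 0.426 and 0.536% in erythroid libraries and 1.74 and 1.45% in double positive libraries. The double positive libraries were the highest and the erythroid libraries the lowest, with no overlap. Double positive minus endothelial was 1.09 ± 0.18 within the family (adjusted p = 3.04e-03) and 1.65 ± 0.16 on the TMM scale (adjusted p = 1.89e-04). Rps27l was the 1 member of these 4 that was called with every denominator and with each library left out. Rps21, a small subunit protein of late maturation, held 0.310, 0.325 and 0.380% in endothelial, 0.348, 0.307 and 0.312% in erythroid libraries and 0.624 and 0.652% in double positive libraries. Both double positive libraries were above all others, while the endothelial and erythroid libraries overlapped. The rise over endothelial libraries was 0.91 ± 0.18 (adjusted p = 7.57e-03, and 0.0632 without double positive replicate 8).

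Rpl23a held 0.782, 0.783 and 0.665% in endothelial and 1.07 and 1.07% in double positive libraries (0.52 ± 0.14, adjusted p = 0.0296). Its call was lost without filter on low counts (adjusted p = 0.0526), with only the populations compared (0.0586), and without endothelial replicate 1 (0.0540) or 3 (0.0804) or double positive replicate 7 (0.111) or 8 (0.133). Rpl7l1, a relative of Rpl7, was the 1 lower member (-1.22 ± 0.23, adjusted p = 6.40e-03, and 0.0617 without double positive replicate 8). Visceral endoderm markers, which were high in both double positive libraries, moved with these results, and their part was not tested. The higher Rps21, Rps27l and Rpl23a have transcripts of 394, 499 and 560 bases, and the lower Rpl7l1 has 2606. Over the 77 members above 10 CPM, this difference within the family had a Pearson correlation of -0.41 with log2 transcript length (Spearman -0.36). It was -0.22 (-0.31) for double positive minus erythroid and 0.0086 (0.14) for erythroid minus endothelial. The part of transcript length was not tested.

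Against erythroid libraries, double positive libraries had 20 members higher within the family and 5 lower (all genes, 43.5% higher and 4.36% lower). The 5 lower members were Rplp0 (-1.04 ± 0.11, adjusted p = 9.28e-05), Rpsa (-0.99 ± 0.14), Rps2 (-0.95 ± 0.11), Rpl13 (-0.58 ± 0.12) and Rpl14 (-0.47 ± 0.13). Rpl13, a large subunit protein, held 1.93, 1.91 and 1.99% in endothelial, 2.26, 2.32 and 2.32% in erythroid libraries and 1.47 and 1.61% in double positive libraries. Its double positive libraries were the lowest of the 8. The higher members included Rps4l (3.74 ± 0.34, adjusted p = 3.86e-05), Rps27l (1.73 ± 0.18, adjusted p = 7.04e-05) and Rps21 (0.98 ± 0.18, adjusted p = 2.00e-03). Of the 20, 12 were shared by the 3 denominators and 9 also by every fit with 1 library left out. With the median of ratios as denominator 12 members were higher and 12 lower, so the excess of higher members was lost. The number of members called higher in all was 13 without erythroid replicate 5, 10 without double positive replicate 7 and 11 without double positive replicate 8. The members above both other populations by the test were Rps21 and Rps27l within the family and Rps4l and Rps27l on the TMM scale. For Rps4l the call over endothelial libraries was kept in 10 of 17 alternative fits. On either scale 0 members were below both. In mean family share the double positive libraries lay between the other populations for 26 of 80 members, above both for 34 and below both for 20.

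Several members are relatives of a core gene, and 4 of these 7 had enough counts to test. Rps4l, which GENCODE annotates on chromosome 6 as a transcribed processed pseudogene, had 384, 430 and 435 counts in endothelial libraries, 145, 47 and 54 in erythroid libraries and 821 and 985 in double positive libraries. The 3 populations did not overlap in its family share, which was 0.223 to 0.309%, 0.0268 to 0.0577% and 0.519 to 0.540%. Erythroid minus endothelial was -2.82 ± 0.31 within the family (adjusted p = 8.99e-05) and -1.51 ± 0.32 on the TMM scale (adjusted p = 5.16e-03). Its rise in double positive over endothelial libraries passed on the TMM scale (1.49 ± 0.34, adjusted p = 0.0155) but not within the family (0.92 ± 0.32, adjusted p = 0.0683). That call was also lost without endothelial replicate 1 (adjusted p = 0.0538) or double positive replicate 7 or 8. Over all alternative scalings, filters and left-out libraries, it was kept in 10 of 17 fits.

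Rps4x, the X-linked core gene, held 1.73, 1.77 and 2.12% of member counts in endothelial, 1.94, 1.84 and 2.08% in erythroid libraries and 1.76 and 1.97% in double positive libraries, so its libraries overlapped between the populations. The ratio of Rps4l to Rps4x counts was 0.150 ± 0.0234 (n = 3), 0.0201 ± 0.00831 (n = 3) and 0.285 ± 0.0303 (n = 2). Of the stretches of 50 bases in Rps4l, 82.0% are found in no other annotated gene.

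Rpl7l1 held 0.502, 0.490 and 0.457% of member counts in endothelial, 0.196, 0.146 and 0.137% in erythroid libraries and 0.211 and 0.205% in double positive libraries. The endothelial libraries were above all others (erythroid minus endothelial -1.59 ± 0.20 within the family, adjusted p = 1.86e-04). Its core relative Rpl7 held 1.47, 1.50 and 1.52%, then 1.09, 1.02 and 1.05%, then 1.26 and 1.44%, and also fell in erythroid libraries (-0.51 ± 0.12, adjusted p = 6.10e-03). The ratio of Rpl7l1 to Rpl7 counts was 0.323 ± 0.0206 in endothelial, 0.151 ± 0.0258 in erythroid and 0.155 ± 0.0173 in double positive libraries.

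Rpl22l1 and Rpl22, a pair in which Rpl22 is known to restrain Rpl22l1, had counts of similar size. Their ratio was 1.15, 1.25 and 1.31 in endothelial, 1.11, 1.21 and 0.903 in erythroid libraries and 1.38 and 1.23 in double positive libraries. The endothelial range overlapped both others, and the erythroid and double positive ranges did not overlap. Rpl3 held 1.71, 1.62 and 1.67% of member counts in endothelial, 1.50, 1.41 and 1.48% in erythroid libraries and 1.34 and 1.20% in double positive libraries, with no call within the family. Its muscle relative Rpl3l had 0 counts in all 8 libraries. Over the 39809333 counts of all libraries, 3 counts set an upper limit of 0.0754 CPM without TMM factors, which covers counting error only. Rpl39 held 0.513, 0.535 and 0.455% in endothelial libraries, 0.495, 0.496 and 0.529% in erythroid libraries and 0.583 and 0.583% in double positive libraries, with no call within the family. Its relative Rpl39l had 21 counts in endothelial replicate 3, 1 and 4 in the double positive libraries and 0 elsewhere. Rpl10l, known from testis, had 2 counts, both in double positive replicate 8.

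The members at the bottom of the range held core genes too. Rpl26 had 0 counts in all 8 libraries, with the same upper limit. Rpl30 had 2 to 19, Rpl34 8 to 25 and Rps27 1 to 17 counts per library. Of the stretches of 50 bases, 1.35% in Rps27, 23.6% in Rpl30, 28.7% in Rpl26 and 49.4% in Rpl34 are found in no other annotated gene. Other members with low percentages had many counts: Rpl35 (4.91%) had 12767 counts over all libraries, Rpl5 (6.16%) had 18606 and Rpl10 (7.87%) had 15868. Rpl32l, annotated as a processed pseudogene, had 0 to 6 counts. The 5 members not tested for lack of counts were Rpl3l, Rpl10l, Rpl26, Rpl32l and Rpl39l. A level near 0 for these core genes is a property of this table, and whether their reads were dropped as having several matching places was not tested.

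Other genes of ribosome production were read from lists chosen beside the family. For the erythroid against endothelial counts of these lists, the shares over all genes were 14.4% higher and 26.6% lower on the TMM scale and 3.46% higher and 59.9% lower with library size alone. Among ribosome constituents outside the naming rule, Rpl36al (1.05 ± 0.16, adjusted p = 9.34e-04), Gnb2l1, also called Rack1 (0.76 ± 0.13, adjusted p = 1.39e-03) and Fau (0.62 ± 0.13, adjusted p = 5.62e-03) were higher in erythroid than endothelial libraries on the TMM scale, and each was lower with library size alone. Of 14 other messenger RNAs with a terminal oligopyrimidine motif, 11 were higher and 0 lower on the TMM scale (median 0.66; all genes 14.4% higher, 26.6% lower), against 1 higher and 12 lower with library size alone. Pabpc1, the poly(A) binding protein, had the largest difference among them: 147, 150 and 138 CPM in endothelial, 742, 871 and 785 CPM in erythroid and 226 and 219 CPM in double positive libraries (erythroid minus endothelial 2.46 ± 0.12, adjusted p = 2.0e-06). It was above every other population in all 3 erythroid libraries.

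Ribosome assembly genes were read on the TMM scale too. Of 41 small subunit assembly genes 8 were higher in erythroid than endothelial libraries and 0 lower (median 0.21), where 14.4% of all genes were higher and 26.6% lower, while with library size alone 0 were higher and 26 lower. Nop56, of the box C/D ribonucleoprotein, stood at 122, 110 and 108 CPM in endothelial, 221, 199 and 257 CPM in erythroid and 59.3 and 64.0 CPM in double positive libraries, with no overlap (erythroid minus endothelial 0.99 ± 0.16, double positive minus erythroid -1.87 ± 0.19). Of 49 large subunit assembly genes 7 were higher and 2 lower (median 0.19), against 0 higher and 34 lower with library size alone. That higher share is also near the 14.4% of all genes. The lower pair was Nip7 (-0.91 ± 0.24) and Npm1, nucleophosmin, at 507, 525 and 515 CPM in endothelial, 391, 270 and 267 CPM in erythroid and 603 and 692 CPM in double positive libraries (-0.74 ± 0.17, adjusted p = 6.8e-03). All 3 erythroid libraries were below the rest for Npm1. Of 14 genes of RNA polymerase I and its factors 1 was higher (Ubtf, 1.58 ± 0.47) and 0 lower (all genes 14.4% and 26.6%), against 0 higher and 6 lower with library size alone. Of 7 dedicated chaperones of ribosomal proteins 2 were higher (Bccip and Pdcd2) and 0 lower on the TMM scale, against 0 higher and 3 lower with library size alone (all genes 3.46% and 59.9%).

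Among 14 genes that control the translation of these messages, 1 was higher in erythroid than endothelial libraries and 2 lower on the TMM scale (all genes 14.4% and 26.6%), against 0 higher and 12 lower with library size alone. Larp1, which binds the pyrimidine run, was the higher one on the TMM scale, a call lost with library size alone (1.80 ± 0.46, adjusted p = 0.013). Eif4ebp1, the translation repressor inactivated by mTOR, was lower (-1.74 ± 0.31, adjusted p = 1.9e-03), and Rptor was lower (-3.15 ± 1.10, adjusted p = 0.048). Of 7 genes that rescue stalled ribosomes, 2 were higher and 0 lower on the TMM scale, with a list median of -0.57, against 0 higher and 4 lower with library size alone (all genes 3.46% and 59.9%). The 2 were Hbs1l (1.30 ± 0.28), the partner of Pelo, and Abce1, which splits ribosomes for reuse. Abce1 stood at 92.0, 91.6 and 97.3 CPM in endothelial, 220, 214 and 241 CPM in erythroid and 82.2 and 75.2 CPM in double positive libraries (1.27 ± 0.14, adjusted p = 1.5e-04). Its erythroid libraries were above all others.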

How the data were processed

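RNA was copied from each pool by oligo-dT priming and amplified by Smart-seq2 with 14 cycles of PCR, per the labels' protocols, with no molecular identifiers. The deposited table holds raw read counts per gene symbol, unscaled. The submitters' processing notes name FastQC, HTSeq and the mm10 build. The aligner, tool versions, annotation, strand setting and treatment of multiply mapping reads were not given in the sources used here. Columns were matched to samples by title.

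Analyses used R 4.3.3, edgeR 4.0.16, limma 3.58.1, DESeq2 1.42.0, python 3.11.15, pandas 2.3.3, matplotlib 3.10.9 and numpy 2.4.6. Genes were kept by filterByExpr with a minimum count of 10 (12136 genes). An edgeR quasi-likelihood model (robust, TMM factors, a mean for each population) was fitted to the 8 libraries together, and p-values were adjusted by Benjamini-Hochberg over all genes tested (two-sided, 0.05). The model was repeated with summed member counts as library size. Fold changes in erythroid, endothelial and double positive comparisons come from these fits. The code was tested on simulated data. No 2 libraries were identical. Values per library were given for the 8 members highest per kilobase, up to 4 largest rises and falls per comparison and scale (at least 50 CPM), and the stalk, 5S, paralog and parent lists, except 2 genes that are not reported here. The members and lists were chosen with earlier results of these data known. Transcript lengths and shared stretches came from GENCODE (GRCm38), and starts from RefSeq (GRCm38.p6). Motif shares were counted over windows without a test. Alternatives were DESeq2, factors by relative log expression (RLE), unscaled library size, globin and Rn45s removed, other family denominators, other count filters, only the populations compared, and each library left out.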

Additional observations from a re-analysis of the deposited data

How the results depend on the processing

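With library size alone the counts of members higher and lower became 4 and 45 for erythroid against endothelial, 2 and 3 for double positive against endothelial, and 29 and 4 in double positive against erythroid libraries, where the 3 medians turned to -0.41, -0.059 and 0.32. With the family total they were 8 and 18, 3 and 1, and 20 and 5, and the erythroid against endothelial and double positive against erythroid medians turned to -0.16 and 0.14. With globin removed, 66 members were higher and 2 lower for erythroid against endothelial, and 5 were higher and 1 lower for double positive against endothelial libraries. For double positive against erythroid, 2 were then higher and 54 lower. With globin and Rn45s removed the counts were 71 and 1, 3 and 1, and 2 and 69 in the same order. For double positive against endothelial, DESeq2 gave 43 higher and 1 lower, and RLE factors 29 higher and 0 lower. Within the family, median-of-ratios denominators gave 12 higher and 11 lower for erythroid against endothelial and 12 higher and 12 lower for double positive against erythroid. A denominator without the 5 highest members gave 13 and 8 there, and 2 lower for double positive against endothelial. Mean shares moved to 4.73% (endothelial), 7.18 and 9.90% (erythroid) and 4.09 and 4.76% (double positive) without globin, or globin and Rn45s.

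With each library left out in turn, TMM counts of higher and lower members ran from 72 to 75 and 1 to 1 for erythroid against endothelial, 7 to 60 and 0 to 1 for double positive against endothelial, and 2 to 3 and 22 to 52 for double positive against erythroid. Within the family they ran from 6 to 8 and 11 to 15 (11 without erythroid replicate 4 or 5), 1 to 4 and 0 to 2, and 10 to 20 and 4 to 6. Without a double positive replicate, the lone library is assumed to vary like the other groups. For erythroid minus endothelial, Rpl10 and Rps27l changed sign between TMM (0.47 and 0.65) and the family total (-0.82 and -0.63). With 2 double positive pools and no molecular identifiers, small differences there were not detectable. No paired analysis was possible because the populations share no replicate numbers.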
